A study of Mus musculus with 5 samples.

Results

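The very short peaks are the RAP1 peaks of 29 to 31 bp with fewer than 50 positive reads. They were chosen by the length and the positive read number in the deposited list, and number 5277 of 30398 listed peaks (17.4%). Among the 29112 peaks below 50 positive reads they make up 18.1%, and the other 23835 peaks below that limit, here called longer peaks, are 32 to 484 bp long. RAP1 was immunoprecipitated from mouse embryonic fibroblasts that carry the SV40 large T antigen and were cultured with puromycin. Per the labels the background is mixed, each genotype has 2 libraries from independent fibroblasts (wild type, and Rap1-deleted as the negative control), and an input library without antibody completes the 5. The deposited list pools reads into a positive set, read here as wild type, and a negative set, read here as Rap1-deleted.

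RAP1 is a subunit of shelterin, the complex that covers telomeres, where TRF2 holds it on the repeats, and it also binds sites inside chromosomes. In chromatin immunoprecipitation with sequencing, a fragment is read from its ends. Forward reads therefore pile up on the left of a bound site and reverse reads on the right, and the distance between the highest forward window (the forward mode) and the highest reverse window (the reverse mode) describes the shape of a peak. The deposited list gives that distance in bp, together with forward and reverse read counts in strand windows that can reach beyond the peak.

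Length and positive reads chose the very short peaks, and the other columns come from the same reads. All values that follow are therefore descriptions with no test. Shares carry exact Clopper-Pearson 95% intervals and ratios carry exact conditional binomial 95% intervals, which cover counting error only. Reads are pooled over libraries, so no value has a spread between replicates, and the depth of each library is unknown.

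The very short peaks are those whose reverse mode lies at or a short way downstream of the forward mode. Below 50 positive reads, all 5277 peaks with a mode distance of 0 to 31 bp are 29 to 31 bp long, and no longer peak has a distance in that range. Their median mode distance was 25 bp (interquartile range 15 to 31 bp), against 57 bp (43 to 73 bp) in longer peaks. In 22019 of 23835 longer peaks (92.4%) the mode distance equals the peak length to the base, so that the length there restates the distance. The other 1816 longer peaks have a distance under 0, with the reverse mode upstream of the forward mode, and a median length of 282 bp. No very short peak has a distance under 0 and 56 have a distance of exactly 0.

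Within the class, length follows from the mode distance by a fixed pattern. All 1784 peaks of 29 bp have an odd mode distance of 1 to 29 bp, and all 1852 peaks of 30 bp have an even one of 0 to 30 bp. All 1641 peaks of 31 bp have a mode distance of 31 bp. Of the 29 bp peaks, 176 (9.87%) have a distance equal to their length, and of the 30 bp peaks 218 (11.8%) do. In the remaining 29 bp and 30 bp peaks the length exceeds the mode distance, and it carries only whether that distance is odd or even.

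The limit at 31 bp separates a crowded length from a sparse one. Just inside it stand 1641 peaks of 31 bp and just outside it 292 peaks of 32 bp, each with a mode distance equal to its length. The read limit is less steep. There are 27 peaks of 29 to 31 bp with 49 positive reads, inside the class, and 9 with 50 reads, outside it. In all, 130 peaks of 29 to 31 bp hold 50 or more reads and were left out.

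**Figure D1:**
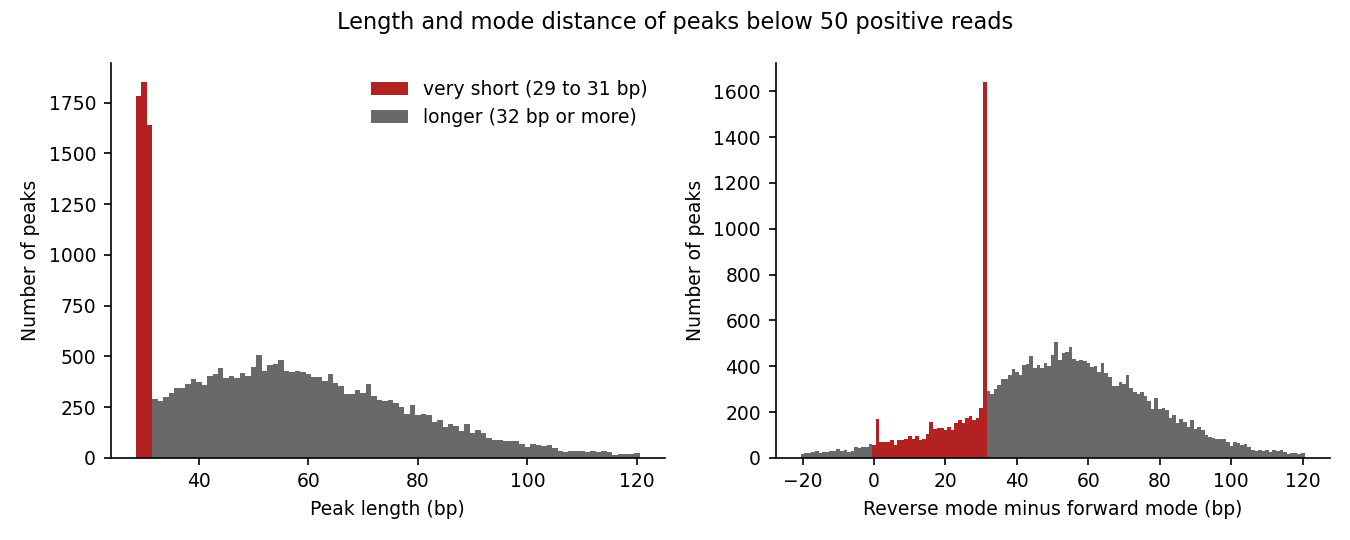
Number of peaks below 50 positive reads (y axes) by peak length (left, up to 120 bp) and by mode distance (right, from -20 to 120 bp), very short peaks in red and longer peaks in grey. The very short peaks stand as a block above the counts next to it in length, and in mode distance they form a low shoulder from 0 to 30 bp with a spike of 1641 peaks at 31 bp and a smaller one of 169 peaks at 1 bp.

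Peaks of 31 bp were the poorest in reads. Their median was 21 positive reads (interquartile range 20 to 24), against 27 (23 to 33) in peaks of 29 or 30 bp, 26 (23 to 30) in peaks of 32 bp and 28 (24 to 33) in all longer peaks. Of the 1641 peaks of 31 bp, 1101 (67.1%, 64.8 to 69.4) hold 20 to 22 positive reads, while 67 of 292 peaks of 32 bp do (22.9%, 18.2 to 28.2). With 23 or more reads there are 487 peaks of 31 bp and 225 of 32 bp. The crowding at 31 bp is thus mostly made of peaks with 20 to 22 reads.

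The lowest forward or reverse window count among the very short and longer peaks is 10 positive reads, and the 31 bp peaks cluster at that minimum. Both strands stand at exactly 10 reads in 395 of them (24.1%, 22.02 to 26.2). The same holds for 205 peaks of 29 or 30 bp (5.64%, 4.91 to 6.44) and for 517 longer peaks (2.17%, 1.99 to 2.36). Both windows can stand at 10 only where the strand sum is 20, so this share depends on the read number. Among peaks with 20 to 22 positive reads, 34.9% (32.1 to 37.8) of 31 bp peaks, 26.4% (23.2 to 29.9) of 29 or 30 bp peaks and 16.5% (15.2 to 17.9) of longer peaks have both strands at 10. The intervals of these 3 classes do not overlap, but the range does not match the read numbers within it. Exactly 20 positive reads are held by 399 of the 1101 peaks of 31 bp in this range. The same holds for 197 of 677 peaks of 29 or 30 bp and 491 of 2810 longer peaks. Weighted to the read numbers of the very short peaks, 10.8% of longer peaks have both strands at 10, against 11.4% of all very short peaks.

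The 31 bp peaks also have a uniform layout, most of which peaks of 32 bp share. The forward mode lies on the first base in 1452 of them (88.5%) and the reverse mode on the last base in 1447 (88.2%). In the 292 peaks of 32 bp these shares are 89.7% and 90.1%. The highest window of both strands lies 15 bp after the start in 1279 (77.9%, 75.9 to 79.9), against 31 of 1784 peaks of 29 bp (1.74%) and 94 of 1852 peaks of 30 bp (5.08%). At 32 bp it lies there in 64 of 292 peaks (21.9%, 17.3 to 27.1). The listed position of the highest window lay inside the peak in 96.3% of 31 bp and 93.5% of 32 bp peaks. It did so in 37.5% of 29 bp and 38.6% of 30 bp peaks. For most 29 and 30 bp peaks the listed position of the strongest window thus lies outside the printed bounds. How far the window reaches around that position was not examined.

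That highest window held every read of the whole peak in 1551 peaks of 31 bp (94.5%, 93.3 to 95.6). It did so in 2153 of 3636 peaks of 29 or 30 bp (59.2%, 57.6 to 60.8) and in 15264 longer peaks (64.0%, 63.4 to 64.6). With 20 to 22 positive reads the shares are closer, at 99.7% for 31 bp, 92.3% for 29 or 30 bp and 93.8% for longer peaks. With 23 to 49 reads they are 82.1% (78.4 to 85.4), 50.7% and 59.9% in the same order. Longer peaks of 32 to 40 bp have 97.6% and 78.6% (76.9 to 80.3) in these 2 ranges, and in the second their interval overlaps that of 31 bp peaks. Copies of 1 molecule made by PCR were not separated from distinct fragments in any class.

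**Figure D2:**
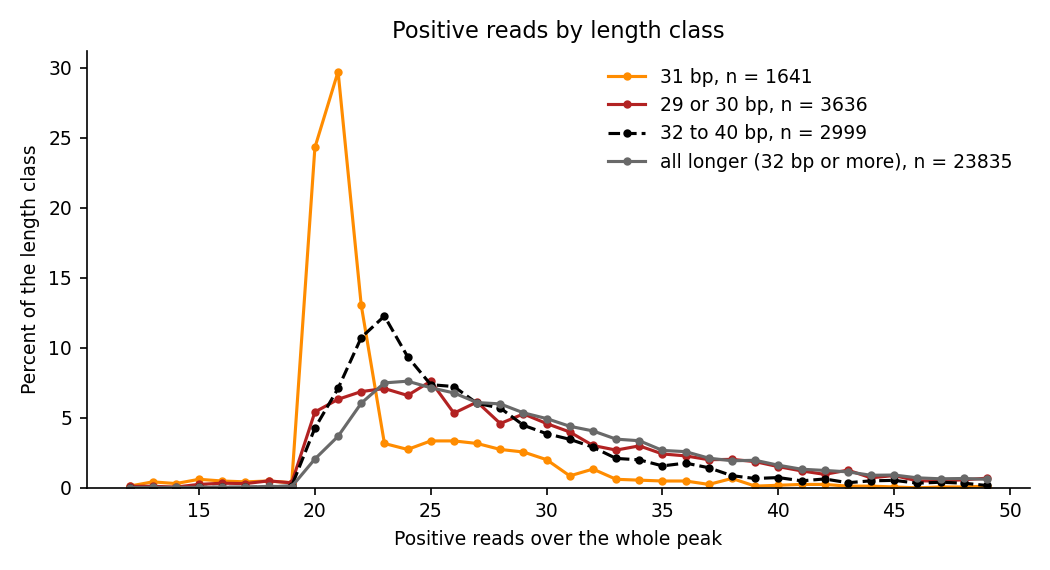
Percent of each length class (y axis) by positive reads over the whole peak (x axis), for 1641 peaks of 31 bp, 3636 of 29 or 30 bp, 2999 of 32 to 40 bp and all 23835 longer peaks. The 31 bp curve is concentrated at 20 to 22 reads, while the curve of 29 or 30 bp peaks runs close to that of all longer peaks from 22 reads on.

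Forward and reverse reads were nearly equal in number in the very short peaks. Their strand windows hold 69650 forward reads of 140142 (49.7%, 49.4 to 49.96), against 349095 of 698276 in longer peaks (49.99%, 49.9 to 50.1). The median strand window holds 12 forward and 12 reverse reads, and 13 of each in longer peaks. The richer strand carries a median of 52.4% of the reads in 31 bp peaks, 55.6% in 29 or 30 bp peaks and 55.9% in longer peaks. One strand has 2 times the reads of the other or more in 216 very short peaks (4.09%, 3.57 to 4.66), of which 16 are 31 bp long, and in 1410 longer peaks (5.92%, 5.62 to 6.22). The minimum of 10 reads per strand window limits these values. With 21 strand reads, the median at 31 bp, the only split is 11 and 10, which gives 52.4%. Most 31 bp peaks hold too few reads for a 2-fold difference, so these values do not compare strand balance between the lengths.

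Strand windows and the whole-peak column matched less often in 29 and 30 bp peaks. The forward and reverse windows sum to the whole-peak count in 84.2% (82.3 to 85.9) of 31 bp peaks, 82.0% (81.5 to 82.4) of longer peaks and 62.8% (61.2 to 64.4) of 29 or 30 bp peaks. In the last class the strand sum is below the whole-peak count in 898 peaks (24.7%) and above it in 454 (12.5%). Where the sum is above, the windows counted reads that the peak column did not.

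In the authors' deposited table, 2182 very short peaks (41.3%, 40.02 to 42.7) have a false discovery rate at or under 0.01, and 13647 longer peaks do (57.3%, 56.6 to 57.9). The share over the whole of the authors' deposited table is 55.9%. The rule used these reads, so nothing is read from that gap. Weighted to the read numbers of the very short peaks, longer peaks reach 41.5%. By length the shares in the authors' deposited table are 49.3% at 29 bp, 51.2% at 30 bp, 21.6% at 31 bp and 53.1% at 32 bp.

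Negative reads, those of the Rap1-deleted control, stood beside more of the very short peaks. A strand window holds 1 or more in 1449 of 5277 (27.5%, 26.3 to 28.7), against 3714 of 23835 longer peaks (15.6%, 15.1 to 16.05), and 18.8% over the whole list. The difference is 11.9 percentage points (10.6 to 13.2). By length, negative strand reads occurred in 28.9% (26.8 to 31.1) of 29 bp, 27.8% (25.7 to 29.9) of 30 bp and 25.5% (23.4 to 27.7) of 31 bp peaks, 3 intervals that overlap. The whole-peak negative column is 0 in all but 5 very short and 10 longer peaks.

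With all read numbers together, this share passed into the longer class without a step at the 31 bp limit. Within ranges of reads only the 31 bp peaks departed from the lengths on either side, as given below. Peaks of 32 bp have 28.1% (23 to 33.6), those of 32 to 40 bp 24.8% (23.3 to 26.4), those of 41 to 50 bp 16.7% (15.6 to 17.9), and those of 61 to 80 bp 12.1% (11.3 to 12.9). Longer peaks with the reverse mode upstream, the broad ones, have 23.8% (21.8 to 25.8). The interval of the very short peaks thus overlaps that of the 32 to 40 bp class and lies above those of the longer lengths named.

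Very short peaks had a higher share than all longer peaks together in every range of reads compared. Most longer peaks are of 41 bp or more, which have 8.66% at 20 to 22 reads and 14.8% at 23 to 49. Those of 32 to 40 bp have higher shares, given in the next paragraph. At 20 to 24 positive reads it was 17.8% (16.3 to 19.4) against 10.9% (10.1 to 11.7) in longer peaks, and at 35 to 39 reads 43.4% (38.6 to 48.3) against 21.3% (19.7 to 22.9). The intervals of the classes do not overlap in any of 6 ranges of reads. Weighted to the same read numbers, longer peaks reach 14.7%. The 126 very short peaks with fewer than 20 reads over the peak stand apart, since 109 of them (86.5%, 79.3 to 91.9) have negative strand reads, against 32 of 98 longer peaks (32.7%, 23.5 to 42.9). These are peaks whose strand windows hold at least 20 reads while the peak itself holds fewer.

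Read number orders the lengths differently. With 20 to 22 positive reads, 136 of 1101 peaks of 31 bp have negative strand reads (12.4%, 10.5 to 14.4), below the 133 of 677 peaks of 29 or 30 bp (19.6%, 16.7 to 22.8) and near the 311 of 2810 longer peaks (11.07%, 9.93 to 12.3). With 23 to 49 reads the 31 bp peaks have the highest share, 230 of 487 (47.2%, 42.7 to 51.8), against 29.1% (27.5 to 30.8) at 29 or 30 bp and 16.1% (15.6 to 16.6) in longer peaks. All 53 peaks of 31 bp with fewer than 20 reads have them too (100%, 93.3 to 100). Negative strand reads were thus least frequent in the 31 bp peaks of 20 to 22 reads, which are the majority, and more frequent on either side of that range.

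**Figure D3:**
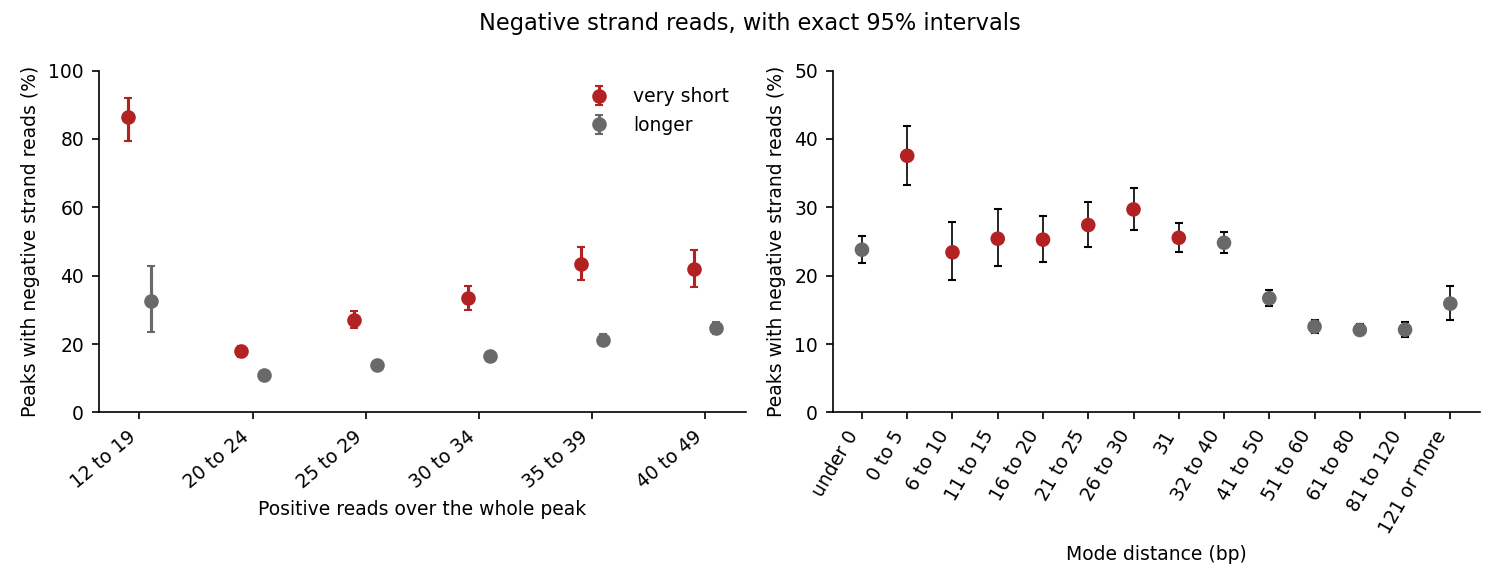
Percent of peaks with 1 or more negative strand reads (y axes), by positive reads (left) and by mode distance (right), with exact 95% intervals. Very short peaks (red) lie above longer peaks (grey) in each range of reads, and the share runs from 37.5% at a mode distance of 0 to 5 bp to 12.1% at 61 to 80 bp.

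Summed strand windows set 140142 positive against 13111 negative reads in the very short peaks. The scale between the read sets, solved from the deposited fold columns, is 3.32 positive reads per negative read. After it, the ratio of positive to negative reads is 3.22 (3.16 to 3.28), against 6.97 (6.89 to 7.05) in longer peaks. The ratio was 3.23 (3.16 to 3.30) at 29 or 30 bp, 3.19 (3.08 to 3.30) at 31 bp, 4.03 (3.93 to 4.14) at 32 to 40 bp and 9.15 (8.92 to 9.38) at 61 to 80 bp. The 2 very short classes thus differ by less than counting error, and both lie below the longer lengths named.

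Among the peaks with negative strand reads, the median holds 8 of them in very short and 7 in longer peaks, and the highest count is 49 and 54. The median ratio per peak is 1.10 (1.03 to 1.17) in very short and 1.33 (1.30 to 1.38) in longer peaks. A ratio of 1 or less, at least as many scaled negative as positive reads, occurred in 656 very short peaks. That is 12.4% (11.6 to 13.4) of the class, against 1289 longer peaks (5.41%, 5.12 to 5.70) and 6.58% over the whole list. Negative reads stand on both strands in 237 of the 1449 very short peaks that have any (16.4%, 14.5 to 18.4) and in 297 of 3714 longer ones (7.997%, 7.14 to 8.92).

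By their listed positions, the negative windows were placed with a strand pattern. The highest forward negative window lay inside the very short peak in 466 of 837 cases (55.7%), after its end in 370 and before its start in 1. The highest reverse negative window lay inside in 452 of 849 (53.2%), before the start in 396 and after the end in 1. In longer peaks 51.5% (49.2 to 53.7) of 1988 forward and 47.998% (45.8 to 50.2) of 2023 reverse windows lie inside. Peaks of 31 bp stand above both, with 67.5% (61.1 to 73.5) of 231 forward and 66.5% (60.1 to 72.5) of 236 reverse windows inside. Peaks of 29 or 30 bp have 51.2% (47.1 to 55.2) and 48.1% (44.1 to 52.2).

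Negative reads went with a mismatch between strand windows and peak. Where the strand sum is above the whole-peak count, 387 of 599 very short peaks have negative strand reads (64.6%, 60.6 to 68.4). Where both are equal, 649 of 3665 do (17.7%, 16.5 to 18.98). In longer peaks the shares are 35.7% (33.4 to 38.0) and 12.1% (11.6 to 12.6).

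The range of mode distance with the most control signal was 0 to 5 bp, and peaks at 1 bp stood out within it. At a mode distance of 0 to 5 bp, 191 of 509 peaks have negative strand reads (37.5%, 33.3 to 41.9), with a summed ratio of 2.27 (2.17 to 2.39). From 6 to 31 bp, 1258 of 4768 do (26.4%, 25.1 to 27.7). A distance of 1 bp is crowded, with 169 peaks against 56 to 76 at each of the distances 0, 2, 3, 4 and 5 bp. Of these 169, 78 (46.2%, 38.5 to 54.0) have negative strand reads, and their summed ratio is 1.56 (1.45 to 1.67). At 0 bp, 17 of 56 peaks have them (30.4%, 18.8 to 44.1), with a ratio of 3.21 (2.72 to 3.81), near that of the class. From 2 to 5 bp the single distances have 27.6% to 37.7%, with ratios from 2.30 to 3.804.

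The authors' deposited table gives each strand a log2 fold, taken where its size is greatest, and a fold under 0 means that scaled negative reads outnumber positive ones there. In that table it occurs in 135 listed peaks (0.444%), of which 111 are very short (2.10% of the class, 1.73 to 2.53) and 14 are longer (0.0587%, 0.0321 to 0.0985). The rule used the same reads, so nothing is read from that gap. All 111 are 29 or 30 bp long, and none of the 1641 peaks of 31 bp is among them (0 to 0.225%). Their median mode distance is 3 bp, and 69 have a distance of 0 to 5 bp. At a distance of 1 bp, 44 of 169 peaks are of this kind (26.04%, 19.6 to 33.3). The 111 peaks lie on 20 chromosomes, 20 of them on chromosome 11, and 6 lie in the group of peaks near its start. Their summed strand ratio is 0.585 (0.550 to 0.622), and 35 have a fold under 0 on both strands.

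The 10 best-ranked very short peaks stand at ranks 210 to 286 of the list. They hold 46 to 49 positive reads, and all have 0 in the whole-peak negative column. Coordinates are given in mm9. The first lies on chromosome 10 from 85770254 to 85770283 (30 bp), with 25 forward and 24 reverse reads, a mode distance of 28 bp and no negative strand read. If its negative reads are set to 3, a floor chosen for a pooled count of 0, positive reads are 4.92 times the scaled negative ones. No interval was computed for that value, which depends on the chosen floor. The second, on chromosome 3 from 107814484 to 107814513 (30 bp), has the same counts and a mode distance of 30 bp. The 31 bp peak on chromosome 16 from 86645271 to 86645301 has 21 forward and 28 reverse reads and none negative. A 30 bp peak on chromosome 13 from 16526640 to 16526669, with a mode distance of 2 bp, has 23 reads on each strand and none negative.

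The other 6 of these 10 have negative strand reads. Their ratios run from 0.552 (0.348 to 0.892) on chromosome 11 from 3059665 to 3059693, with 55 positive and 30 negative strand reads and a mode distance of 1 bp, to 2.46 (1.05 to 7.02) on chromosome 2 from 181667188 to 181667217, with 49 and 6. A high rank in the list thus stood beside ratios on either side of 1.

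The most negative strand reads of a very short peak were 49, on chromosome 16 from 14237696 to 14237724. This 29 bp peak has 18 reads over the peak, 10 forward and 13 reverse reads in the strand windows, and a ratio of 0.141 (0.0822 to 0.236). The next is on X from 146913148 to 146913177, with 43 positive and 46 negative strand reads (ratio 0.281, 0.181 to 0.436). After it comes a peak on chromosome 11 from 3058162 to 3058191, with 51 and 45 (0.341, 0.224 to 0.521). In each of the 3 the whole-peak negative column is 0, so that the peak column alone would show no control reads.

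Both ends of the mode distance range include peaks without control reads. At 0 bp, the best-ranked lies on chromosome 17 from 93850329 to 93850358, with 23 forward and 15 reverse reads. The next are on chromosome 12 from 84885728 to 84885757, with 24 and 21, and on chromosome 2 from 59504923 to 59504952, with 21 and 11. None of the 3 has a negative strand read. At 31 bp, after the chromosome 16 peak above, come the peaks on chromosome 10 from 71692458 to 71692488, with 17 reads on each strand and none negative, and on chromosome 11 from 3091222 to 3091252. The last has 36 forward and 28 reverse reads against 20 negative ones (ratio 0.963, 0.575 to 1.68).

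Very short peaks made up a similar part of the peaks below 50 reads on most chromosomes. On 17 of 20 chromosomes the interval holds the overall 18.1%. X has the highest share, 100 of 442 (22.6%, 18.8 to 26.8), followed by chromosome 11 with 410 of 2057 (19.9%, 18.2 to 21.7). Chromosome 1 has the lowest, 323 of 2179 (14.8%, 13.4 to 16.4), and the other chromosomes lie between 17.1% and 19.6%. The intervals of neighbours in this order overlap throughout. Those of X and chromosome 11 lie wholly above the overall share, that of chromosome 11 only narrowly, and that of chromosome 1 wholly under it. The chromosome 11 share includes 23 very short peaks of 1 group near its start, and is not given without that group. Chromosome Y, with 1 peak, was left out.

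The shares of X and chromosome 11 differed in their lengths. On X, 50 of 442 peaks are 31 bp long (11.3%, 8.51 to 14.6), against 5.64% (5.37 to 5.91) over all chromosomes, while its 50 peaks of 29 or 30 bp (11.3%) lie near the overall 12.5%. On chromosome 11, 313 peaks are 29 or 30 bp long (15.2%, 13.7 to 16.8) and 97 are 31 bp long (4.72%, 3.84 to 5.72). On chromosome 1 the share of 29 or 30 bp peaks is 9.68% (8.47 to 11) and that of 31 bp peaks 5.14% (4.25 to 6.15). Very short peaks on X hold a median of 22 positive reads, against 27 on chromosome 11 and 24 on chromosome 1.

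How often negative strand reads occurred did not follow the order of the chromosomes. Negative strand reads stand at 15% (8.65 to 23.5) of very short peaks on X, 40.7% (35.9 to 45.7) on chromosome 11 and 40% (33.4 to 46.9) on chromosome 17. On each of the 20 chromosomes the share was higher in very short than in longer peaks, by 4.26 to 21.8 percentage points. Among peaks without negative strand reads, the very short share is 15.98% (15.5 to 16.5) over all 20 chromosomes, 21.7% (17.8 to 26.2) on X and 13.5% (12.02 to 15.2) on chromosome 1. On chromosome 11 it is 15.4% (13.6 to 17.3), an interval that holds the overall share, so that its excess was not seen in these peaks.

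The best-ranked very short peak of X lies from 91808402 to 91808432. It is 31 bp long, with 19 reads on each strand and none negative. The best-ranked of chromosome 1, from 187017681 to 187017709, is 29 bp long and has 35 positive and 10 negative strand reads (ratio 1.05, 0.511 to 2.39).

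**Figure D4:**
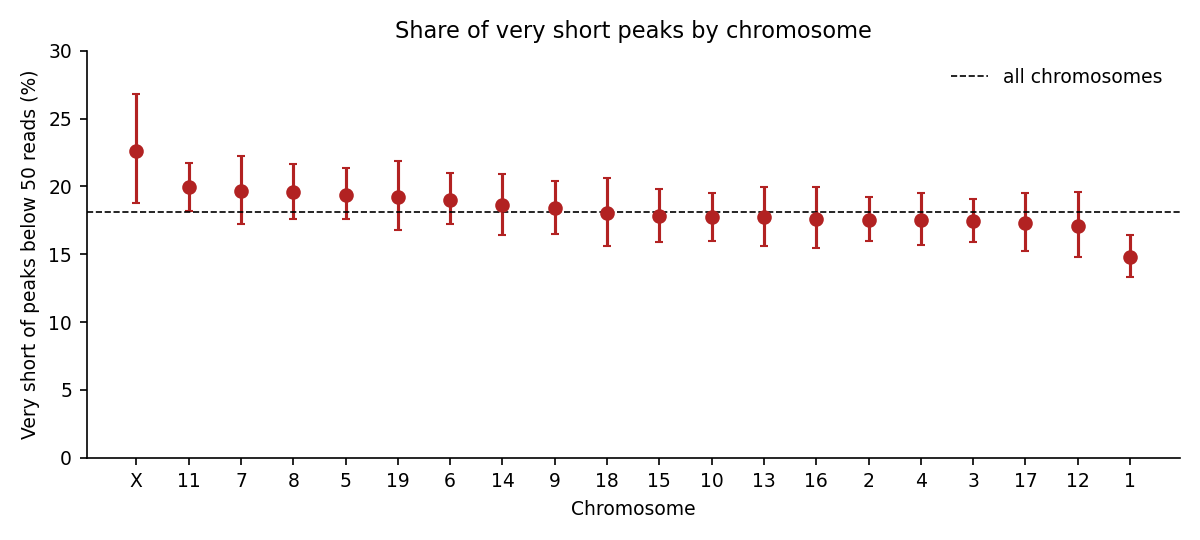
Percent of peaks below 50 positive reads that are very short (y axis) on each chromosome (x axis, in order of share), with exact 95% intervals and the overall 18.1% as a dashed line. X stands highest at 22.6% and chromosome 1 lowest at 14.8%.

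As a class, the very short peaks had a neighbour within 10 kb about as often as longer peaks. The nearest other listed peak lies within 10 kb for 1790 of 5277 (33.9%, 32.6 to 35.2) and for 8087 of 23834 longer peaks (33.9%, 33.3 to 34.5). The difference is -0.00973 percentage points (-1.42 to 1.42). Within 1 kb the shares are 6.59% (5.94 to 7.30) and 5.83% (5.54 to 6.14), a difference of 0.763 points (0.0401 to 1.53). Median gaps are 19.1 kb (18.1 to 20.1) and 18.8 kb (18.4 to 19.3). The nearest peak is itself very short for 17.8% (16.7 to 18.8) of very short and 17.2% (16.7 to 17.7) of longer peaks, so that very short peaks were not detectably next to one another more often.

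That equality joined lengths that differ. Of 29 or 30 bp peaks, 37.7% (36.1 to 39.2) have a neighbour within 10 kb, and the median gap is 16.4 kb (15.4 to 17.4). Of 31 bp peaks, 25.7% (23.6 to 27.8) have one, and the median gap is 26.4 kb (24.4 to 28.5). With 20 to 22 positive reads the shares are 30.3% (26.8 to 33.9) at 29 or 30 bp, 22.2% (19.7 to 24.7) at 31 bp and 31.1% (29.4 to 32.9) in longer peaks. In this range of reads the interval of the 31 bp peaks lies below the others, and those of the 29 or 30 bp and longer peaks overlap. With 23 to 49 reads the shares are 39.1% (37.3 to 40.9), 32.6% (28.5 to 37.0) and 34.3% (33.7 to 34.97) in the same order. Here the interval of the 29 or 30 bp peaks lies above the others, and those of the 31 bp and longer peaks overlap. The intervals treat peaks as independent, which neighbouring peaks are not. Neither range matches the read numbers within it. Whether the lengths differ in neighbours beyond these limits was not tested.

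**Figure D5:**
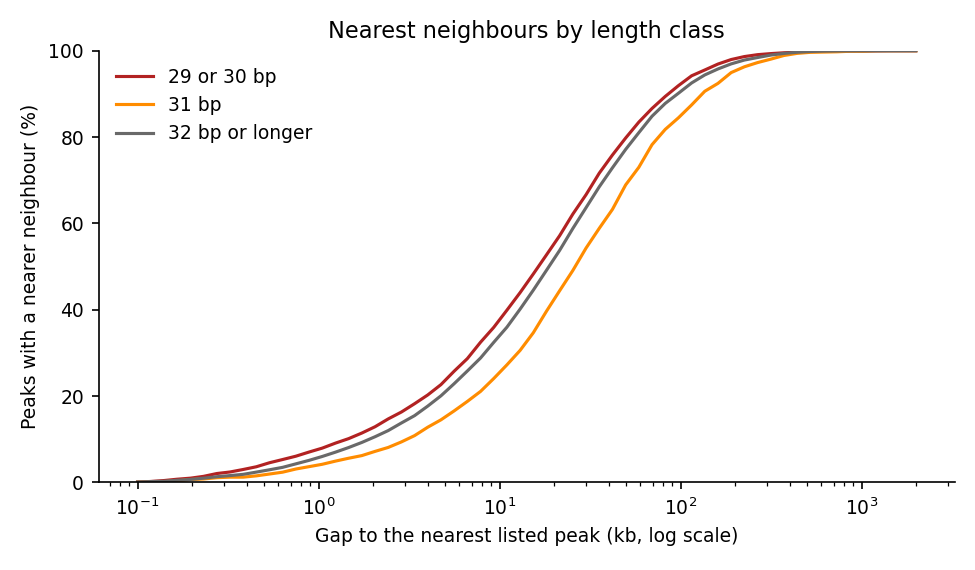
Cumulative percent of peaks whose nearest listed peak lies nearer than the gap on the x axis (kb, log scale), for 29 or 30 bp, 31 bp and longer peaks. The 31 bp curve lies to the right of the others, with a median gap of 26.4 kb against 16.4 kb and 18.8 kb.

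Peaks with control reads had nearer neighbours in both classes. Among very short peaks with negative strand reads, 43.8% (41.2 to 46.4) have a neighbour within 10 kb, against 30.2% (28.7 to 31.7) of those without. In longer peaks the shares are 44.6% (43.03 to 46.3) and 31.95% (31.3 to 32.6).

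Few very short peaks stood together. Joined at gaps of up to 10 kb, 3487 (66.1%) are alone in their group, as are 66.1% of longer peaks. There are 204 groups with 2 very short peaks, 14 with 3 and 3 with more. The one richest in them is near the start of chromosome 11, between 3025355 and 3100104, where 23 of 72 peaks are very short (31.9%, 21.4 to 44.0). Of the 23, 20 have negative strand reads, and their summed ratio is 0.727 (0.642 to 0.825). Of the 13 longer peaks of the group below 50 reads, 12 have negative strand reads. The ratio over all 13 is 0.869 (0.727 to 1.04), and the intervals overlap. The other 36 peaks hold 50 or more reads, which the class excludes, and have a ratio of 1.54 (1.40 to 1.71). Of these 36, 34 have negative strand reads, so that such reads are common to the whole group. On chromosome 3 from 107531395 to 107547799, 5 of 7 peaks are very short and all 5 have negative strand reads (ratio 1.06, 0.755 to 1.52).

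There are 35 successive pairs of very short peaks under 1 kb apart. The closest pair is on chromosome 2, from 122204348 to 122204377 and from 122204498 to 122204526, with 120 bp between them. The first of these has 22 positive and 15 negative strand reads, all negative ones forward, and the second 28 and 11, all negative ones reverse. The next pair lies on chromosome 19 from 45132526 to 45132554 and from 45132678 to 45132706, 123 bp apart, both with a mode distance of 1 bp and with 8 and 15 negative strand reads. A further pair, 146 bp apart, lies in the chromosome 11 group, from 3091047 to 3091075 and from 3091222 to 3091252. Of these 6 peaks, 5 have negative strand reads, with ratios from 0.442 (0.219 to 0.915) to 0.963.

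Very short peaks were slightly more often near chromosome starts. Of them, 112 (2.12%, 1.75 to 2.55) start before 5 Mb, against 330 longer peaks (1.38%, 1.24 to 1.54). Without the chromosome 11 group these are 1.69% (1.36 to 2.08) and 1.33% (1.19 to 1.48), and the intervals overlap. In the last 1 Mb before the last listed peak of a chromosome, 1.40% (1.10 to 1.76) of very short and 1.35% (1.21 to 1.51) of longer peaks lie.

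The 130 peaks of 29 to 31 bp with 50 or more reads, outside the class, have negative strand reads in 83 cases (63.8%, 55.0 to 72.1). Only 10 of them (7.69%) have a mode distance of 31 bp, against 31.1% of the very short peaks.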

How the data were processed

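RAP1 chromatin immunoprecipitation was sequenced in 2 wild-type and 2 Rap1-deleted fibroblast lines, with 1 input. The authors deposited 1 pooled peak list; the build is mm9, per the submitters' processing notes, while aligner, peak caller and filters are not given in the sources used here. Per the file headers, its read columns are counts of positive and negative reads, its highest windows a signal in reads, its folds log2 values, its false discovery rates q-values, and Delta, a deposited score, was not used. The positive and negative sets were read as wild type and Rap1-deleted from the design text. Whether input entered the negative set is not stated.

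Here, peaks were classed by length and reads, and nearest gaps, shares, medians and ratios were computed (Python 3.11.15, pandas 2.3.3, SciPy 1.17.1, NumPy 2.4.6; functions tested on simulated data; figures with matplotlib 3.10.9). The scale of 3.32 was solved from 141 strand folds, of which 140 gave it within 0.001. Where a peak had no negative read, a floor of 3 over the pooled set was used. The gap is to the nearest listed peak of any class. The deposited mode distance equals the difference of the 2 listed mode positions plus 1 for 82.3% of very short and 95.3% of longer peaks, and was used as deposited.

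The members, lists and classes were chosen with earlier results of these data known. Named peaks are the 10 best-ranked, the 3 with most negative strand reads, the 3 at each end of mode distance, the 3 closest pairs, the 2 groups richest in very short peaks, and the best-ranked of the chromosomes with the highest and lowest share. The split into 31 bp against 29 or 30 bp, the ranges of reads and of mode distance, and the chromosome ends were chosen after values were seen. No mm9 sequence or annotation was used, so no sequence is printed and no peak is assigned to a gene. Of the 10 best-ranked, 6 are named singly and the rest are given by their range.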

Additional observations from a re-analysis of the deposited data

How the results depend on the processing

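No paired analysis was possible because the deposited list pools the libraries of each genotype and has no column per library. For the same reason no library could be left out. Of 59 alternative values, 36 stayed within the 95% interval of the reported value, or, for the number of peaks, within 1.5 times of it (3636 to 6467 against 5277), and 23 moved. The neighbour difference within 1 kb, 0.763 points, lay inside the reported interval, but its own interval is above 0. The neighbour difference, whose reported interval spans 0, took either sign. Every other result kept its direction or, for strand reads at the stricter false discovery rate, came to 0. For the 2 results on mode distance the length limit largely sets the direction, so nothing is read from its staying the same. The cause of a move was not tested. Comparisons weighted to the same read numbers were also added after the data were seen.

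The median mode distance of longer peaks exceeds that of very short ones by 32 bp. It was 36 bp at 29 to 30 bp, 31 bp at 29 to 35 bp, 26 bp below 30 reads and 38 bp at a false discovery rate at or under 0.01. The reverse mode lay downstream more often in very short peaks, by 6.56 percentage points, and by 5.59 at 29 to 30 bp, 7.15 at 29 to 35 bp, 3.69 below 30 reads, 2.20 at the stricter false discovery rate and 5.86 without negative reads. The median strand reads differ by 3, and by 1 at 29 to 30 bp, 2 below 30 reads and 0 at the stricter rate.

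The excess in negative strand reads, 11.9 points, was 17.7 at the stricter rate, which leaves 2182 very short peaks, and 10.6 to 12.7 under the other alternatives. The summed strand ratio of 3.22 was 3.28 at 29 to 35 bp, 3.50 below 30 reads, 2.85 at the stricter rate, 3.41 without chromosome 11, 3.29 without its largest group (added after the data were seen) and 10.7 with no scaling. The neighbour difference was 4.25 points at 29 to 30 bp, 4.52 at the stricter rate and -1.75 without negative reads. The highest chromosome share was that of chromosome 11, not X, at 29 to 30 bp and at the stricter rate.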
